A study of Mus musculus with 2 samples.

Results

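The genes described here are the chemokines, interleukins, colony stimulating factors and tumour necrosis factor (TNF) superfamily members, with their receptors, in the intestine of Apc-Min mice. They were chosen by gene symbol, with 1 matching symbol left out, which gave 162 of the 18919 genes in the table. Of these 35 were chemokines, 18 chemokine receptors, 25 interleukins, 40 interleukin receptor subunits, 4 other interleukin-named genes, 7 colony stimulating factors or their receptors, 13 TNF superfamily ligands and 20 TNF receptor superfamily genes. The Setd2 KO mice carried the Min mutation (APCmin) together with loss of Setd2, an enzyme that methylates histone H3, in the intestinal epithelial cells (Setd2IEC-/-). The control mice carried APCmin alone. Both groups were untreated C57BL/6 animals aged 2 months, kept free of specific pathogens. Each group was 1 library, made from the pooled RNA of 3 littermates, so no difference given here has a replicate check. The driver of the epithelial deletion is not given in the sources used here. As the labels describe it the deletion covers epithelial cells alone, so the bulk RNA also holds that of other cells in which Setd2 was not targeted.

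Chemokines are small secreted proteins that guide leukocytes along gradients, and they act on G protein-coupled receptors that lymphocytes and myeloid cells carry in type-specific combinations. Interleukins and colony stimulating factors act through receptor subunits that are often shared between several cytokines, so a subunit can be abundant where its ligand is scarce. TNF superfamily ligands are mostly membrane-bound trimers whose receptors control survival, death and lymphoid organisation. In the intestine the epithelium makes chemokines that recruit gut-homing lymphocytes, and Peyer's patches and isolated follicles depend on a chemokine code that separates B cell from T cell zones.

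Expected counts added up to 8646358 in the Setd2 KO library and 8809678 in the control library. Setd2 itself was at 3.47 FPKM (fragments mapped to a gene, scaled to its length and to the depth of the library) in the Setd2 KO library and at 6.87 FPKM in the control library, which checks the labels. Markers of the intestinal epithelium had 6763 FPKM in sum in the Setd2 KO library and 7151 FPKM in the control library, and 0 of 9 were past 2-fold. All 10 markers of the exocrine pancreas were at least 2-fold higher in the Setd2 KO library, at 1529 FPKM in sum against 41.9 FPKM in the control library. Stomach markers had 60.3 against 2.29 FPKM and red blood cell markers 240.0 against 66.1 FPKM. How far other tissue or blood in the Setd2 KO pool bears on the values of the cytokine genes was not tested.

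Of the 162 members 109 reached 1 FPKM in either library and were taken as measured. Of those, 97 did so in both libraries, 7 only in the Setd2 KO library and 5 only in the control library. Differences are given as log2 ratios of Setd2 KO over control FPKM, after 1 was added to each. By this measure 4 of the 109 measured members were at least 2-fold higher in the Setd2 KO library (Il1rl1, Ccl27a, Tnfsfm13 and Il3ra), or 3.67%, and 1 was at least 2-fold lower (Tnfrsf13c), or 0.917%. Over all 13253 measured genes the shares were 2.78% higher and 1.28% lower, so the members differed about as often as genes in general. The median log2 ratio was 0.04 over the measured members and 0.08 over all measured genes. Scaling by the median ratio of all genes turned the members' median to -0.06.

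**Figure D1:**
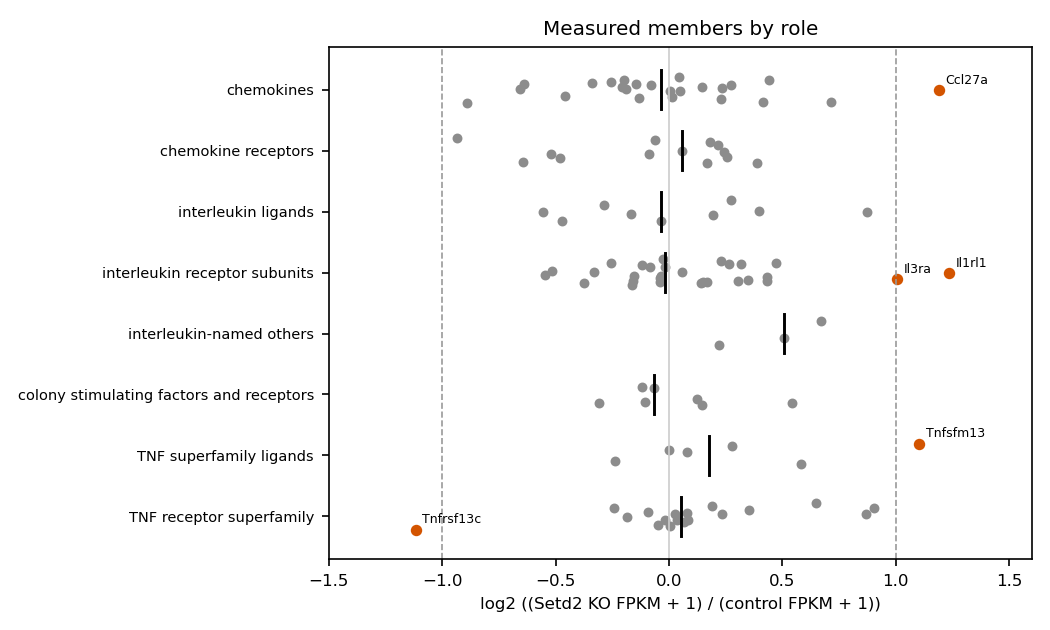
Each point is 1 of the 109 measured members, placed by its log2 ratio of Setd2 KO over control (FPKM + 1) on the x axis and by role on the y axis; black bars are role medians and dashed lines mark 2-fold. Most members lie within 2-fold, and the 5 named genes lie past it.

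The added 1 FPKM hides differences of scarce transcripts, and most cytokine genes are scarce. A second measure therefore took the ratio of expected counts, scaled to the library totals, for the 112 members with 20 or more counts over both libraries. By counts 9 of the 112 were at least 2-fold higher in the Setd2 KO library, or 8.04%, against 5.48% of the 14040 genes with as many counts. At least 2-fold lower were 4 of the 112 (3.57%), against 1.67% of all such genes. The higher ones were Tnfsfm13, Ccl27a, Tnfrsf25, Tnfrsf23, Il1rl1, Il11, Ccr2, Il3ra and Tnfsf9. The lower ones were Cxcr5, Tnfrsf13c, Ccr6 and Ccr7. Each ratio is given below with a 95% counting interval (exact Clopper-Pearson), which covers counting error only and not variation between mice or pools.

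**Figure D2:**
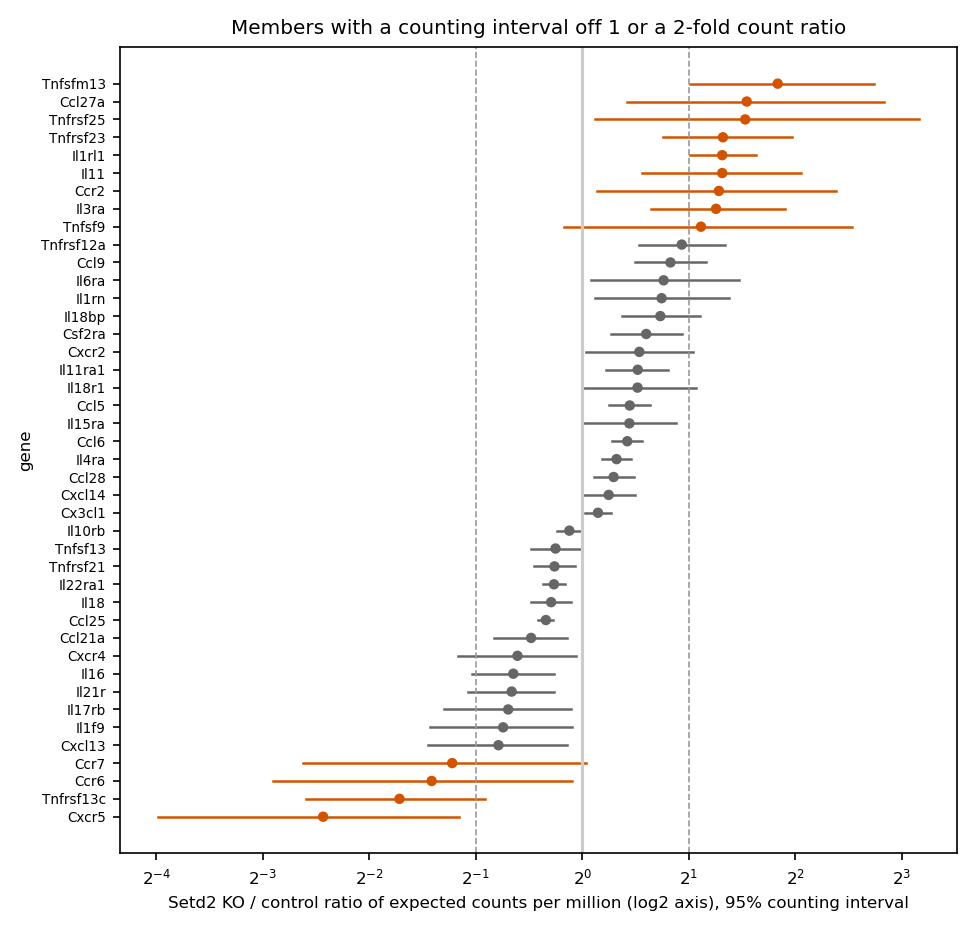
Ratios of expected counts scaled to the library totals, Setd2 KO over control, on a log2 axis with 95% counting intervals, for members with 20 or more counts whose interval lies off 1 or whose ratio is past 2-fold (orange; dashed lines). Tnfsfm13 is highest at 3.57 and Cxcr5 lowest at 0.185; the intervals of Tnfsf9 and Ccr7 include 1.

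Among the chemokines, Ccl25 dominated. This epithelial chemokine, which draws Ccr9-bearing lymphocytes to the small intestine, was at 313.5 FPKM in the Setd2 KO library and 397.1 FPKM in the control library. It made up 45.9% of the summed chemokine FPKM in the Setd2 KO library and 55.6% in the control library. Its count ratio was 0.789 (95% counting interval 0.751 to 0.829), well inside 2-fold. Ccl5, which attracts effector T cells, was at 109.6 against 80.4 FPKM, with a count ratio of 1.36 (1.19 to 1.56). Ccl6, a myeloid chemokine of rodents, was at 77.1 against 57.5 FPKM, with a ratio of 1.34 (1.22 to 1.48). Its neighbour and relative Ccl9 was at 8.19 against 4.61 FPKM, with a ratio of 1.78 (1.41 to 2.23). The order of the 4 most abundant chemokines, Ccl25, Ccl5, Ccl6 and Cx3cl1, was the same in both libraries. In sum the 35 chemokines had 7776 counts in the Setd2 KO library and 8007 in the control library, a ratio of 0.989 (0.959 to 1.02).

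Of 24 measured chemokines 12 had a log2 ratio above 0 and 12 below, with 1 at least 2-fold higher, 0 lower and a median of -0.04. The higher one was Ccl27a, a chemokine best known from skin, at 4.80 FPKM in the Setd2 KO library and 1.54 FPKM in the control library. It rested on 26 and 9.1 counts, for a ratio of 2.92 (1.34 to 7.14), and its near-identical copy Ccl27b had 2.14 and 1.5 counts, so the pair together had a ratio of 2.71 (1.25 to 5.77). Its exons overlap those of Il11ra1 on the opposite strand by 8 bases, and whether strand was used in counting is not given in the sources used here. Cx3cl1 (fractalkine), a membrane-bound epithelial chemokine, was at 43.7 against 39.5 FPKM. Ccl28, a mucosal chemokine for antibody-secreting cells, was at 15.5 against 12.6 FPKM, with a ratio of 1.23 (1.08 to 1.4).

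The chemokines that build lymphoid follicles were lower in the Setd2 KO library, each by less than 2-fold on the log2 scale used. Cxcl13, which attracts B cells into follicles, was at 3.33 FPKM in the Setd2 KO library and 5.74 FPKM in the control library, with a count ratio of 0.580 (0.366 to 0.904). Ccl19, which guides T cells and dendritic cells, was at 1.49 against 2.93 FPKM, with a ratio of 0.509 (0.202 to 1.19) whose interval includes 1. Ccl21a, the other ligand of the same receptor, was at 16.7 against 23.3 FPKM, with a ratio of 0.717 (0.562 to 0.906); near-identical copies make its single value uncertain. Xcl1, which attracts cross-presenting dendritic cells, had the lowest log2 ratio of the measured chemokines, at -0.89, from 5 and 13 counts. The interferon-inducible chemokines Cxcl9, Cxcl10 and Cxcl11 were at 2.78, 2.09 and 1.28 FPKM in the Setd2 KO library and at 3.34, 2.57 and 1.72 FPKM in the control library, and all 3 intervals include 1. Neutrophil-attracting Cxcl1, Cxcl2 and Cxcl5 stayed below 1 FPKM in both libraries.

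**Figure D3:**
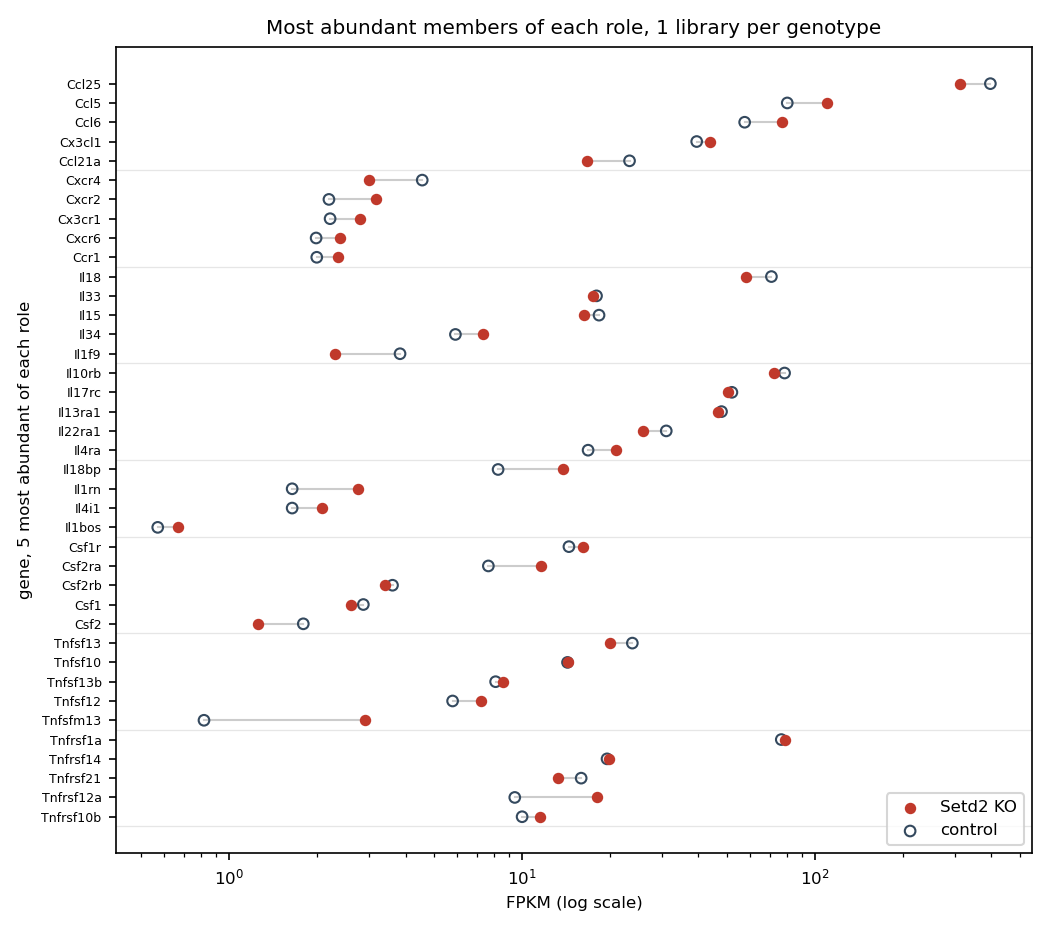
FPKM on a log axis of the 5 most abundant members of each role (all 4 of the interleukin-named others), with filled red points for the Setd2 KO library and open points for the control library. Ccl25 is highest at 313.5 against 397.1 FPKM, and no chemokine receptor exceeds 5 FPKM.

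Chemokine receptors were scarce, with 0 of 18 at a mean of 10 FPKM, and 0 of 13 measured were past 2-fold by FPKM. By counts 3 of 14 were at least 2-fold lower, Cxcr5, Ccr6 and Ccr7, against 1.67% of all genes with as many counts. All 3 are receptors of lymphocytes. They rest on 6 to 8 counts in the Setd2 KO library, and none of them stays in at a minimum of 50 counts. Cxcr5, the receptor that brings B cells to Cxcl13, was at 0.26 FPKM in the Setd2 KO library and 1.41 FPKM in the control library. This came from 6 and 33 counts, a ratio of 0.185 (0.0635 to 0.448). Exons of Bcl9l on the opposite strand overlap Cxcr5 by 110 bases. Ccr6, the receptor for Ccl20 on B cells and some T cells, was at 0.62 against 1.53 FPKM, from 7 and 19 counts, with a ratio of 0.375 (0.133 to 0.933). Ccr7, which leads lymphocytes and dendritic cells to Ccl19 and Ccl21, was at 0.48 against 1.12 FPKM, from 8 and 19 counts, with a ratio of 0.429 (0.162 to 1.03). Cxcr4, the widely expressed receptor for Cxcl12, was at 2.99 against 4.56 FPKM, with a ratio of 0.656 (0.445 to 0.959), inside 2-fold.

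Beside this group stand the B cell markers, a list chosen, like the other marker lists, with earlier results of these data known. Of 11 listed, 10 were measured, and 3 of these were at least 2-fold lower in the Setd2 KO library and 0 higher. Over all measured genes 1.28% were lower. All 10 measured markers had a log2 ratio below 0, with a median of -0.77. Of these, 5 reached 1 FPKM only in the control library, Ms4a1 among them, so their sign was fixed by that filter. The 11 markers had 28.1 FPKM in sum in the Setd2 KO library and 53.0 FPKM in the control library. Their count ratio was 0.470 (0.418 to 0.527), and none was at 0. Ms4a1, which encodes CD20, was at 0.90 against 5.73 FPKM. T cell markers had 55.3 against 58.2 FPKM in sum and 0 of 10 measured past 2-fold, and plasma cell markers had 1071 against 865.5 FPKM. In bulk RNA, fewer cells of a type and less RNA per cell cannot be told apart, and how far the B cell markers account for the receptors' values was not tested.

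**Figure D4:**
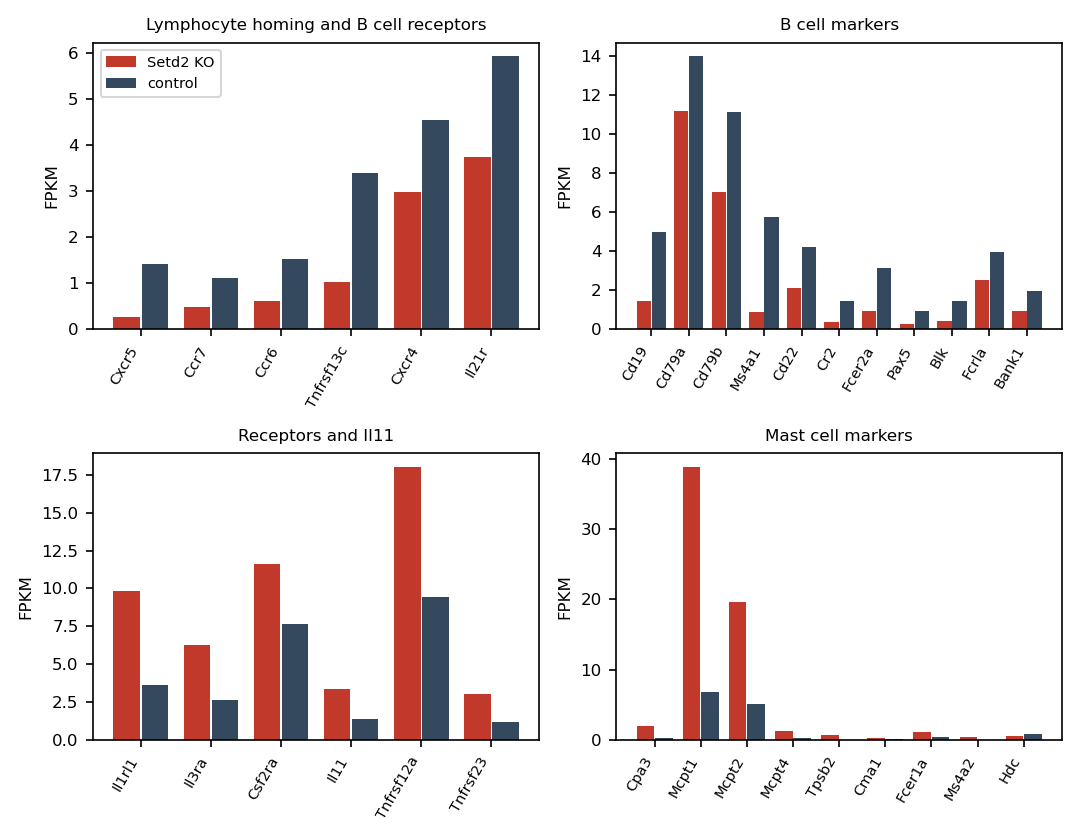
FPKM (y axes, from 0, on different scales) in the Setd2 KO library (red, left bars) and the control library (dark, right bars). The members in the upper left panel and all 11 B cell markers beside them are lower in the Setd2 KO library. The members in the lower left panel are higher there, as are 8 of the 9 mast cell markers, Hdc being the other. Members in both left panels were picked with their values known and are not whole groups. Lymphocyte receptors that were not lower, such as Ccr10 (2.08 against 1.58 FPKM) and Tnfrsf17 (3.95 against 3.73 FPKM), are not shown.

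On the higher side Ccr2, the receptor of inflammatory monocytes, was past 2-fold by counts alone, at 0.80 FPKM in the Setd2 KO library and 0.33 FPKM in the control library, from 25.2 and 10.6 counts. Its ratio was 2.43 (1.10 to 5.21). Its counts are not whole, so part of its reads were divided with other genes and the value is uncertain. Macrophage and monocyte markers had 273.2 against 303.5 FPKM in sum, with 0 of 11 measured past 2-fold. Of these 8 had a log2 ratio above 0, with a median of 0.15, while Lyz2 (77.0 against 107.7 FPKM) and Mertk (51.5 against 68.4 FPKM) were lower in the Setd2 KO library, and the part of the markers in the Ccr2 value was not tested. Cxcr2, which neutrophils use, was at 3.18 against 2.19 FPKM, with a ratio of 1.45 (1.03 to 2.06). Neutrophil markers had 19.1 against 11.4 FPKM in sum, with 1 of 6 measured at least 2-fold higher. Of the 6, 4 had a log2 ratio above 0 and 2 below, Ly6g (2.63 against 2.69 FPKM) and S100a8 (1.91 against 2.19 FPKM). Among the 4 above 0, 2 reached 1 FPKM only in the Setd2 KO library, which fixed their sign. Mpo, Elane and Mmp8 were at 0 in the control library, with only 1, 1 and 2 counts in the Setd2 KO library. The part of the neutrophil markers in the Cxcr2 value was not tested. Ccr9, the gut-homing receptor for Ccl25, was at 1.85 against 1.97 FPKM, and Ccr10, the partner of Ccl28, at 2.08 against 1.58 FPKM; both intervals include 1.

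Of the interleukins themselves most were scarce, with 16 of 25 below 1 FPKM in both libraries. Il18, an epithelial cytokine matured by inflammasomes, was the most abundant, at 58.0 FPKM in the Setd2 KO library and 71.0 FPKM in the control library, a count ratio of 0.817 (0.717 to 0.930). Il33, an alarmin released by damaged barrier cells, was at 17.49 against 17.95 FPKM, and Il15, which sustains intraepithelial lymphocytes, at 16.2 against 18.3 FPKM; both count intervals include 1. Il34, a ligand of the macrophage receptor Csf1r, was at 7.36 against 5.92 FPKM, with a ratio of 1.24 (0.933 to 1.66).

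Il11 differed most among the interleukins. It encodes a cytokine that signals through gp130 and is made mainly by stromal cells. It was at 3.38 FPKM in the Setd2 KO library and 1.39 FPKM in the control library, from 54.9 and 22.5 counts, a ratio of 2.49 (1.47 to 4.15). Its log2 ratio of 0.87 stayed under 2-fold after the added 1 FPKM. Stromal fibroblast markers had 190.7 against 158.4 FPKM in sum, with 0 of 10 past 2-fold, and their part in the Il11 value was not tested. On the lower side, Il1f9, also called IL-36 gamma, was at 2.29 against 3.83 FPKM, with a ratio of 0.598 (0.371 to 0.933), and Il16, a chemoattractant for CD4 cells, at 2.15 against 3.37 FPKM, with a ratio of 0.639 (0.488 to 0.832). Exons of Stard5 overlap Il16 on the opposite strand. Il1b, the main inflammasome cytokine of myeloid cells, was at 1.99 against 1.27 FPKM, from 23 and 15 counts, with an interval of 0.781 to 3.22.

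Several members were at or near 0. Listed at 0 in both libraries were 6 members: Il17a, Il17b, Il20ra, Ccr8, Ccl21b and Tnfsf18. A further 7 were at 0 in the control library alone, among them Il6, Il4, Il17c and Il13ra2, with 1 to 4 counts in the Setd2 KO library. Another 7 were at 0 in the Setd2 KO library alone, among them Il22, Il13, Il21 and Il23r, with 1 to 4 counts in the control library. A count of 0 allows up to 3 counts, which is a CPM (count scaled to the library total) of 0.347 in the Setd2 KO library and 0.341 in the control library, so no fold is given for these genes.

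Among the interleukin receptor subunits 2 of 29 measured were past 2-fold, both higher in the Setd2 KO library, against 2.78% of all measured genes. Il1rl1 (ST2), the receptor for Il33 on mast cells, type 2 innate lymphoid cells and regulatory T cells, was at 9.83 FPKM in the Setd2 KO library and 3.60 FPKM in the control library. Its counts were 302.6 and 124.1, a ratio of 2.49 (2.01 to 3.09), and its log2 ratio of 1.24 was the highest of all members. The gene lies on mm10 chromosome 1, 40404864 to 40465418, and gives a membrane receptor and a shorter soluble decoy from alternative transcripts. The deposited transcript length of the gene, which RSEM averages over its isoforms by their abundance, was 3531 bases in the Setd2 KO library and 3870 bases in the control library. For this gene 2 promoters were given, 10059 bases apart, and both are shown, from RefSeq on GRCm38.p6 in the sense of the gene. Both lie inside the span given above, and no promoter at its first base was given. Upstream and downstream are said of these 2 promoters alone. Each runs from 250 bases before to 50 after the start, and capitals mark the letters GGANTTTCC or their reverse complement, a form of the NF-kB motif.
Il1rl1 upstream start, chr1:40429320-40429619, plus strand: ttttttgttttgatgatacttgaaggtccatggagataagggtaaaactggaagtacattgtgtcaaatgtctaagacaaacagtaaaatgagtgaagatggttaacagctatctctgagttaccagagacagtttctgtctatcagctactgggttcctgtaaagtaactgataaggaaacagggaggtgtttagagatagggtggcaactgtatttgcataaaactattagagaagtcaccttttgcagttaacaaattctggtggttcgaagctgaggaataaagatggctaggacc
Il1rl1 downstream start, chr1:40439379-40439678, plus strand: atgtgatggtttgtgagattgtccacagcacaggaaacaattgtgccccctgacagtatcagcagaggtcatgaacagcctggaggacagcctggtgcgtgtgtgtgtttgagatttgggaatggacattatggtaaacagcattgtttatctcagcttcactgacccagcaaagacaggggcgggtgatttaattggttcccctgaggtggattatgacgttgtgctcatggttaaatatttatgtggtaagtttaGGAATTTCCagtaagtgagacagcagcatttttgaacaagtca
The downstream promoter holds the motif and the upstream one does not. Their GC contents were 44.7% and 38.7%. The deposited gene values do not separate reads by start site.

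Mast cell markers were higher in the same library as Il1rl1. Of 9 listed, 5 were measured and 3 of these were at least 2-fold higher in the Setd2 KO library. Of the 5 measured, 3 reached 1 FPKM only in the Setd2 KO library, so their direction was fixed by that filter. Over all measured genes 2.78% were higher. The 9 markers had 64.9 FPKM in sum against 13.9 FPKM in the control library and a count ratio of 4.45 (3.68 to 5.42). Mcpt1, a mucosal mast cell protease, was at 38.9 against 6.85 FPKM, and Tpsb2 and Ms4a2 were at 0 in the control library alone. Markers of innate lymphoid cells had 94.2 against 90.1 FPKM in sum, 0 of 4 measured past 2-fold, with the type 2 regulator Gata3 at 0.21 FPKM in both libraries. The part of these cells in the Il1rl1 value was not tested. Il33 itself did not differ detectably, as given above.

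Il3ra, the ligand-specific subunit of the IL-3 receptor on mast cells, basophils and other myeloid cells, was the other. It was at 6.27 FPKM in the Setd2 KO library and 2.62 FPKM in the control library, from 75 and 32 counts, a ratio of 2.39 (1.56 to 3.73). Its log2 ratio of 1.01 lay just past the threshold of 1 and was under it after median-ratio scaling. The part of the mast cell markers given above in this value was not tested. The beta subunits Csf2rb, which GM-CSF and IL-5 also use, and Csf2rb2, which in mice serves IL-3 alone, are near-identical and had 201.2 and 205.5 counts together in the Setd2 KO and control libraries, a ratio of 0.997 (0.814 to 1.21). The promoter of Il3ra, on chromosome 14, is GC-rich at 74.3% and is shown beside that of Tnfrsf13c, on chromosome 15, at 61.7%, the member past 2-fold in the other direction by both measures. Both are in the sense of the gene, and neither holds the motif.
Il3ra, chr14:14346245-14346544, plus strand: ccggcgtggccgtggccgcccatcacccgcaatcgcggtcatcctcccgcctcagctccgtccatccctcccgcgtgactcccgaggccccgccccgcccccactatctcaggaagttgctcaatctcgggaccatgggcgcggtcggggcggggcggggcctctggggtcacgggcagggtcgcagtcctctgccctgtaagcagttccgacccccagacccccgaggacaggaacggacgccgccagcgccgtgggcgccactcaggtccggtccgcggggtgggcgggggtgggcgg
Tnfrsf13c, chr15:82224331-82224630, minus strand: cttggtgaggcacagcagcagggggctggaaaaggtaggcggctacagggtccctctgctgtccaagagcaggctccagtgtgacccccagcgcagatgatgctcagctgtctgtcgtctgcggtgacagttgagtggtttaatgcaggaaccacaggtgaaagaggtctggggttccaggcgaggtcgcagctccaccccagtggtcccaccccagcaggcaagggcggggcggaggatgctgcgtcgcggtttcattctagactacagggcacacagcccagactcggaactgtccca
The RefSeq table held 150 promoters of 125 members. The motif was in 8.0% of them and in 1.25% of all 32851 promoters, and in 1 of the 16 promoters found for 10 of the 13 members past 2-fold, the Il1rl1 promoter shown above. A match describes letters in a window and is no evidence of binding.

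The abundant receptor subunits of the epithelium lay close between the libraries. Il10rb, shared by the receptors for IL-10, IL-22 and type III interferons, was at 72.4 FPKM in the Setd2 KO library and 78.7 FPKM in the control library. Il17rc, which pairs with Il17ra to bind IL-17A and IL-17F, was at 50.6 against 52.0 FPKM, and Il13ra1, which pairs with Il4ra, at 46.8 against 48.0 FPKM. Il4ra was at 21.0 against 16.8 FPKM, with a ratio of 1.25 (1.14 to 1.38), and Il22ra1, the epithelial IL-22 receptor, at 25.8 against 31.1 FPKM, with a ratio of 0.832 (0.773 to 0.895). Il22ra2, a secreted decoy for IL-22, was at 1.68 against 2.47 FPKM, with an interval of 0.433 to 1.05.

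Among the scarcer subunits, Il21r, the receptor for the follicular helper cytokine IL-21, was at 3.75 FPKM in the Setd2 KO library and 5.94 FPKM in the control library, with a ratio of 0.632 (0.476 to 0.835). Il17rb, a subunit used by part of the IL-17 family, was at 2.24 against 3.63 FPKM, with a ratio of 0.618 (0.406 to 0.928). Tuft cell markers had 34.1 against 42.6 FPKM in sum, a ratio of 0.825 (0.751 to 0.906), with 0 of 6 measured past 2-fold and 5 of 6 below 0, and their part in the Il17rb value was not tested. Il11ra1, the receptor for Il11, was higher, at 15.69 against 11.02 FPKM, and with its near-identical copy Il11ra2 the count ratio was 1.47 (1.21 to 1.80). Il15ra, which presents IL-15 to lymphocytes, was at 7.69 against 5.45 FPKM, with a ratio of 1.36 (1.01 to 1.84). Over all 29 measured subunits 14 lay above 0 and 15 below, with a median of -0.02, 2 past 2-fold higher and 0 lower. In sum the 40 subunits had a count ratio of 1.002 (0.972 to 1.03).

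Of the genes that carry an interleukin's name without being a ligand or receptor, the secreted antagonists Il18bp and Il1rn had count intervals above 1 and ratios inside 2-fold. Il18bp, which neutralises IL-18, was at 13.8 FPKM in the Setd2 KO library and 8.28 FPKM in the control library, with a count ratio of 1.66 (1.29 to 2.15). Exons of Numa1 overlap it by 80 bases on the opposite strand. Il1rn, the IL-1 receptor antagonist, was at 2.75 against 1.64 FPKM, with a ratio of 1.68 (1.08 to 2.60). Il4i1, an amino acid oxidase named for its induction by IL-4, was at 2.08 against 1.64 FPKM. Il1r2, the decoy receptor for IL-1, was at 1.46 against 0.93 FPKM, from 17 and 11 counts, and its interval of 0.696 to 3.72 includes 1.

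Of the 7 colony stimulating factors and receptors 0 were past 2-fold by either measure. Csf2ra, the ligand-specific subunit for GM-CSF, had the highest ratio, with 11.6 FPKM in the Setd2 KO library and 7.67 FPKM in the control library, a count ratio of 1.52 (1.202 to 1.92). Csf1r, the receptor that maintains macrophages, was at 16.1 against 14.5 FPKM. Its ligand Csf1 was at 2.60 against 2.87 FPKM, and Csf3r, the G-CSF receptor of neutrophils, at 1.22 against 1.41 FPKM. Csf2, which encodes GM-CSF, was at 1.25 against 1.79 FPKM, from 11 and 16 counts. The intervals of Csf1r, Csf1, Csf3r and Csf2 include 1.

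Of the TNF superfamily ligands 1 of 6 measured was at least 2-fold higher in the Setd2 KO library by FPKM. By counts 2 of 7 were higher, and 0 were lower by either measure. Over all genes 2.78% were higher by FPKM and 5.48% by counts. The 2 ligands called, Tnfsfm13 and Tnfsf9, both have limits that are given below. Tnfsfm13, which joins Tnfsf12 and Tnfsf13 on chromosome 11, was at 2.91 FPKM in the Setd2 KO library and 0.82 FPKM in the control library, a count ratio of 3.57 (2.02 to 6.66). Its exons overlap those of both parent genes, between which shared reads must be divided. The 3 genes together had 451.0 counts in the Setd2 KO library and 453.0 in the control library, with a ratio for the sum of 1.01 (0.888 to 1.16) that includes 1. Tnfsf13 (APRIL), a survival factor for plasma cells, was at 20 against 23.79 FPKM. Tnfsf12 (TWEAK) was at 7.22 against 5.79 FPKM. Tnfsf10 (TRAIL), a death ligand, was at 14.30 against 14.29 FPKM, and Tnfsf13b (BAFF), a B cell survival factor, at 8.63 against 8.12 FPKM.

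Scarcer ligands had too few counts for a firm statement. Tnfsf9 (4-1BB ligand), a costimulator of T cells, was past 2-fold by counts, at 1.62 FPKM in the Setd2 KO library and 0.75 FPKM in the control library, but with 17 and 8 counts its interval of 0.886 to 5.80 includes 1. Tnfsf14 (LIGHT) had 11 and 2 counts, below the 20 required, and a ratio of 5.604 (1.22 to 52.0). Tnf itself, the founding inflammatory cytokine, was at 0.91 against 0.64 FPKM, from 13 and 9 counts, with an interval of 0.582 to 3.90.

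Among the TNF receptors Tnfrsf13c, the BAFF receptor of mature B cells, was the only member at least 2-fold lower by both measures. It lies on chromosome 15, 82221742 to 82224380, and was at 1.03 FPKM in the Setd2 KO library and 3.40 FPKM in the control library. Its counts of 17 and 57 gave a ratio of 0.304 (0.166 to 0.530). The B cell markers given above were lower in the same library, and their part in this value was not tested. The related receptors of activated B and plasma cells lay close between the libraries. Tnfrsf17 (BCMA) was at 3.95 against 3.73 FPKM and Tnfrsf13b (TACI) at 2.86 against 2.65 FPKM, with count ratios of 1.06 (0.594 to 1.89) and 1.08 (0.525 to 2.23). The difference between these ratios and that of Tnfrsf13c was not tested.

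On the higher side stood Tnfrsf12a (Fn14), the TWEAK receptor that is induced in injured epithelium, at 18.04 FPKM in the Setd2 KO library and 9.44 FPKM in the control library. Its count ratio was 1.91 (1.45 to 2.54) and its log2 ratio 0.87, both short of 2-fold. Tnfrsf23, a decoy receptor for TRAIL in mice, was at 3.02 against 1.15 FPKM, with a count ratio of 2.50 (1.69 to 3.91). Its paralogues Tnfrsf22 and Tnfrsf26 lie beside it on chromosome 7, and the 3 together had 292.9 counts in the Setd2 KO library and 207.1 in the control library, a ratio of 1.44 (1.203 to 1.73). Tnfrsf25 (DR3), a receptor of lymphocytes, was at 1.21 against 0.41 FPKM, from 17 and 6 counts, with a ratio of 2.89 (1.09 to 8.94). Tnfrsf1a, the broadly expressed TNF receptor and the most abundant of the family, was at 78.8 against 76.7 FPKM, with a ratio of 1.03 (0.955 to 1.10). Tnfrsf21 (DR6) was at 13.3 against 15.9 FPKM, with a ratio of 0.835 (0.731 to 0.951). Over 18 measured receptors 12 lay above 0 and 6 below, with a median of 0.05.

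Ligands and receptors were set side by side. Of 47 fixed ligand and receptor pairs, 27 had both partners measured, and in 10 of these both log2 ratios were above 0, in 5 both were below 0 and in 12 they had opposite signs. The 5 with both below 0 were Cxcl13 with Cxcr5, Ccl19 with Ccr7, Ccl20 with Ccr6, Xcl1 with Xcr1 and Ccl25 with Ccr9. A gene that reached 1 FPKM in only 1 library had its sign fixed by that filter. This was so for Cxcr5, Ccr7 and Ccr6, which reached it only in the control library. Among the 10 above 0 were Il11 with Il11ra1 (log2 ratios 0.87 and 0.47) and Tnfsf12 with Tnfrsf12a (0.28 and 0.87). Il33 and Il1rl1 had opposite signs (-0.04 and 1.24), as had Tnfsf13b and Tnfrsf13c (0.08 and -1.12), Csf2 and Csf2ra (-0.31 and 0.54) and Il18 and Il18r1 (-0.29 and 0.32). Signs of small ratios are not stable, since scaling by the median ratio turned that of Tnfsf13b to -0.01.

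Many members lie in clusters of the genome. Of 11 clusters with 2 or more measured genes, 4 had every measured gene above 0, 2 had every one below 0 and 5 were mixed. Over all 13253 measured genes 8287 were above 0 and 4931 below. On chromosome 1 (mm10, 40084692 to 40551707) the cluster of Il1r2, Il1r1, Il1rl2, Il1rl1, Il18r1 and Il18rap had 5 measured genes, all above 0, with a median of 0.32, and Il1rl1 alone past 2-fold. Of these, Il1r2 and Il1rl2 reached 1 FPKM only in the Setd2 KO library, so their sign was fixed by that filter. The chromosome 11 cluster of Ccl5, Ccl9, Ccl6, Ccl3 and Ccl4 had 4 measured genes, all above 0. Their median was 0.43 and 0 were past 2-fold. In both clusters the gene left unmeasured was lower in the Setd2 KO library. Il18rap was at 0.40 against 0.50 FPKM, from 17 and 22 counts. Ccl3 was at 0.30 against 0.87 FPKM, from 2 and 6 counts, and both intervals include 1. In the Cxcl9, Cxcl10 and Cxcl11 cluster on chromosome 5 all 3 genes were below 0, with a median of -0.21. Clusters were found after the values were known and are given as a description.

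Genes that carry the signals of these cytokines showed few differences past 2-fold, though some count intervals lay off 1. Those above 1 included Birc3, with a ratio of 1.55 (1.34 to 1.78), and Socs5, with 1.84 (1.35 to 2.52). Those below 1 included Cish, with 0.633 (0.507 to 0.787), and Jak2, at 35.7 against 51.3 FPKM, with 0.697 (0.653 to 0.743). Of 31 measured genes of the NF-kB pathway 0 were past 2-fold by either measure, with a median of 0.04; Nfkbia, its feedback inhibitor, was at 42.8 FPKM in the Setd2 KO library and 47.5 FPKM in the control library, and Birc3, a target that restrains cell death, at 20.6 against 13.3 FPKM. The JAK, STAT and SOCS list had 0 of 26 past 2-fold and a median of 0.04, with Socs5 at 3.10 against 1.69 FPKM and Cish, a STAT5 target, at 5.18 against 8.26 FPKM. Signal transducers of IL-1 and Toll-like receptors had 0 of 13 past 2-fold by FPKM, 1 of 13 higher by counts and a median of 0.04, and inflammasome and cytokine processing genes 0 of 15 and a median of 0.09, with Gsdmd, the pore protein of pyroptosis, at 206.8 against 194.3 FPKM. All measured genes had a median of 0.08.

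In a list of epithelial genes tied to IL-17 and IL-22, 2 of 11 measured were at least 2-fold higher in the Setd2 KO library and 0 lower. The median was 0.03, and by counts 3 of 9 were higher and 1 lower. The list was mixed, since it held the signal adaptor Traf3ip2 and also S100a8, one of the neutrophil markers above. Over all genes 2.78% were higher and 1.28% lower by FPKM, and 5.48% higher and 1.67% lower by counts. Saa3, an acute phase protein, was at 5.50 FPKM in the Setd2 KO library and 0.90 FPKM in the control library, a count ratio of 6.11 (2.10 to 24.2), and reached 1 FPKM only in the Setd2 KO library. Fut2, which fucosylates the epithelial surface, was at 8.69 against 2.13 FPKM, a ratio of 4.11 (3.06 to 5.61). Lcn2, an iron-withholding antimicrobial protein, was the other one higher by counts, at 3.47 against 1.36 FPKM, a ratio of 2.55 (1.18 to 5.94). The lower one was Nos2, the inducible nitric oxide synthase, at 0.51 against 1.47 FPKM, a ratio of 0.346 (0.191 to 0.6003). Duox2, an epithelial oxidase, was at 12.9 against 19.8 FPKM, and Pigr, the carrier of secretory IgA and the most abundant gene of the list, at 1422 against 1689 FPKM.

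Related genes outside the symbol rule were listed too. In the list of other TNF superfamily genes 0 of 8 measured were past 2-fold by FPKM, with a median of -0.21, and by counts 2 of 9 were higher and 1 lower. The higher ones were Cd27, a costimulatory receptor of lymphocytes, at 1.42 FPKM in the Setd2 KO library and 0.52 FPKM in the control library with an interval of 0.975 to 7.06, and the death ligand Fasl, at 1.10 against 0.54 FPKM with an interval of 0.869 to 5.15. The lower one was Ltb, the lymphotoxin subunit that organises follicles, at 4.91 FPKM in the Setd2 KO library and 9.95 FPKM in the control library, with a count ratio of 0.494 (0.341 to 0.706). The B cell markers given above were lower in the same library, and their part in the Ltb value was not tested. Ltbr, its receptor on stromal and epithelial cells, was at 90.4 against 75.8 FPKM. Of 18 other cytokine and growth factor genes 0 were past 2-fold by either measure, with a median of 0.03; Mif was at 112.6 against 63.9 FPKM, and Kit, the stem cell factor receptor of mast cells and pacemaker cells, at 5.04 against 2.83 FPKM, with a ratio of 1.78 (1.43 to 2.22), beside the higher mast cell markers given above. Among atypical chemokine receptors and chemokine-like genes 0 of 7 were past 2-fold by FPKM and 1 of 6 was higher by counts. That was the platelet chemokine Pf4, at 4.31 FPKM in the Setd2 KO library and 2.12 FPKM in the control library, from 22 and 11 counts, with an interval of 0.947 to 4.65. Ackr4, which scavenges Ccl19, Ccl21 and Ccl25, was at 1.64 against 3.12 FPKM, with a ratio of 0.527 (0.327 to 0.833).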

How the data were processed

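Intestinal RNA of 2 pools, 1 library each, was sequenced. Per the labels' protocols and the submitters' processing notes, BWA and Bowtie2 served for mapping to mm10, and RSEM for quantification; versions are not given in the sources used here. The authors deposited expected counts and FPKM per gene, per the file headers; RSEM divides reads that fit several genes, and the lowest FPKM above 0 in the table is 0.01. The members and lists were chosen with earlier results of these data known. Members were matched by symbol, and all 162 gene identifiers were in RefSeq (GRCm38.p6).

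From the deposited FPKM the log2 ratio of Setd2 KO over control was computed after adding 1 FPKM; from the expected counts, the ratio after scaling to the library totals, with an interval from the rounded counts (Python 3.11.15, scipy 1.17.1). A ratio of 2 or more, or 0.5 or less, counted as past 2-fold. With 1 library per group no test, p-value or standard error was computed. The count calls and their intervals were checked on simulated counts that held counting error alone, so variation between pools was not covered. The log2 ratio of FPKM was not checked in this way. Alternatives were other pseudocounts, filters, scalings (TMM from edgeR 4.0.16) and count minimums.

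Named are members past 2-fold, the 3 highest, 3 lowest and 3 most abundant of each role and their partners. Chosen after their values were seen were Ccl21a, Cxcl9, Cxcl10, Cxcl11, Il22ra1, Il4ra, Il1r2, Tnfrsf13b, Nfkbia, Lyz2, Mertk, Lcn2, and the genes named as listed at 0, as near-identical copies or as cluster neighbours. Il1bos, an antisense transcript of Il1b, was placed with the interleukin-named others after its name was seen. Genes not in the table were not analysed here.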

Additional observations from a re-analysis of the deposited data

How the results depend on the processing

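The 5 members past 2-fold by FPKM (4 higher, 1 lower in the Setd2 KO library) depended on how low values were treated. Higher members numbered 8 with a pseudocount of 0.1 FPKM, 2 with a filter of 5 FPKM, 7 after rescaling to TPM and 7 as CPM with TMM scaling; lower members numbered 5, 0, 3 and 5 under the same settings, and 3 with a pseudocount of 0.5. All genes moved too, from 369 higher and 170 lower to 699 and 282 with a pseudocount of 0.1 FPKM. By counts, 9 higher and 4 lower members became 5 and 1 with 50 or more counts and 18 and 11 at a fold of 1.5. Il1rl1 was past 2-fold under every setting tried; Tnfrsf13c under all but the filter of 5 FPKM, which it does not reach. The members' median was -0.0586 as CPM with TMM scaling, a setting that changes both unit and scale, and -0.0592 after scaling by the median ratio. The median of the interleukin-named others moved to 0.71 with a pseudocount of 0.1 FPKM. Of 78 named genes, 6 small ratios changed sign under median-ratio scaling (Cxcl12, Tnfrsf14, Tnfrsf17, Tnfrsf1a, Tnfsf10 and Tnfsf13b), none of them past 2-fold. No paired analysis was possible because each group has 1 library. Depth limits the scarce members: 53 of 162 lay below 1 FPKM in both libraries.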
